A study of Mus musculus with 2 samples.

Results

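Mitotic genes encode the machinery that condenses, aligns and separates chromosomes. The 40 genes described here were taken by symbol from a list that was chosen with earlier results of these data known. Of the 40, 40 were found among the 27179 genes of the deposited tables. RNA sequencing covered 2 libraries of 1 group: ILC2 progenitors, the precursors of type 2 innate lymphoid cells, FACS-sorted out of C57BL/6 bone marrow at an age of 8 weeks. For each library 8 mice were pooled, and 100 ng of RNA was used. The labels give no treatment, genotype or other difference between the pools, and neither the sorting antibodies nor the animals' sex is stated in the sources used. The pools are called 1 and 2 in accession order. The column headings name the opposite sample in both files (0 of 2 matched), and if they are right, the names of pool 1 and pool 2 are exchanged in every ratio below.

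As background, cells enter mitosis when cyclin-dependent kinase 1, bound to A- and B-type cyclins, is switched on by CDC25 phosphatases. The spindle checkpoint holds the cell until every kinetochore is attached, and the anaphase-promoting complex, a ubiquitin ligase, then marks securin and cyclin B for destruction. Most of these genes are transcribed late in the cell cycle under the MuvB complex with B-Myb and FOXM1, and are held down in resting cells by the DREAM complex, which binds the CHR element (TTTGAA). Their transcripts are therefore widely used as a measure of how many cells of a sample are cycling. In bulk RNA, fewer cycling cells and less of a transcript per cell cannot be told apart.

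The CHR element and the CCAAT box, which binds the factor NF-Y, were looked for in the promoters, since the members share a direction between the pools. RefSeq promoter windows (GRCm38.p6, the assembly behind mm10, 250 bases before to 50 after the gene's start) were found for 33 of the 40 genes. Both strands were searched, for TTTGAA or its complement TTCAAA, and for CCAAT or its complement ATTGG. Neither motif contains the other. The stretches below show members in which TTTGAA lies before the start, in capitals together with each CCAAT box, on the gene's own strand, and each stretch begins 130 bases before the start and ends before any exon of the gene in RefSeq or GENCODE.
Top2a, chr11:99024200-99024319, minus strand: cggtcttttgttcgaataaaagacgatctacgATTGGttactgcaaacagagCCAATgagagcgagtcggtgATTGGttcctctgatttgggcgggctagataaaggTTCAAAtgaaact
Kif11, chr19:37376252-37376381, plus strand: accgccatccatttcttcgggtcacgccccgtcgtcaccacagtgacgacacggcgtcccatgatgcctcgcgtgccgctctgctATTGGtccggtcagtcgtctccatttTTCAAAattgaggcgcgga
Cdc20, chr4:118437353-118437473, minus strand: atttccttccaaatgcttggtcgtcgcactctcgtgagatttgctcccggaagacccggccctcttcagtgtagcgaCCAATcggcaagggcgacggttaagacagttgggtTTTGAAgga
Cdk1, chr10:69352939-69353042, minus strand: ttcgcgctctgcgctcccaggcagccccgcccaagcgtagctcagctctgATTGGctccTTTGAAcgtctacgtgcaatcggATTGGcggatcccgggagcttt
Mki67, chr7:135716451-135716509, minus strand: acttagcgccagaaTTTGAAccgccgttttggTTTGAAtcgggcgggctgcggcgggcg
In Top2a and Kif11 the element begins 23 and 19 bases before the start, with a CCAAT box further upstream. Mki67 has a pair of TTTGAA elements, at 116 and 98 bases before the start, and no CCAAT box within the stretch shown. Its window does hold CCAAT boxes further upstream, which begin at positions -188, -166 and -141 from the start. Also outside the stretches shown, Cdk1 has TTTGAA at 15 bases and Top2a at 179 bases before the start.

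TTTGAA was present in the window of 23 of 33 mitotic genes (69.7%), against 20.2% of all 27025 genes with a window and 14.0% of the 8406 of those detected in both pools. It began within 50 bases of the start, on either side, in 21 of the 33 (63.6%) and in 5.72% of all genes. CCAAT was present in 25 of 33 (75.8%) against 41.1% of all genes, and both were present in 20 (60.6%) against 8.97%. The replication genes listed for comparison held CCAAT about as often, in 12 of 17 windows (70.6%), and TTTGAA in 3 (17.6%). The core subunits and regulators of the anaphase-promoting complex held TTTGAA in 3 of 16 windows and CCAAT in 6. A match describes the letters of the window and shows no binding. Between the pools, the median log2 ratio was 1.202 over the 23 genes with TTTGAA (range 0.37 to 2.14) and 1.16 over the 10 without it (range -0.24 to 1.44), and these ranges overlap. The window of Pttg1 held neither motif.

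Values are the authors' RPKM, read counts scaled to gene length and library depth, and each gene is given by its value in either pool, in the order pool 1 and pool 2 (n = 2). The depth, found from the steps between values, was 20216146 reads in pool 1 and 19834586 in pool 2, and 3 reads over 1 kb of gene correspond to 0.148 and 0.151 RPKM. Read numbers were estimated as whole reads that fit both values of a gene at a length near the annotated one. Over all genes these estimates summed to 9.74% more than the total in pool 1 and 9.11% more in pool 2, so they are not the exact counts of every gene. They give each ratio of the pools a 95% exact counting interval, which covers counting error only and rests on the estimates. All 14 ILC2 markers listed were at 28.2 RPKM or more on the mean of the pools, from Bcl11b at 28.2 to Ly6a at 1160.4. Markers listed for other cells lay in the same range, such as Trac at 162, Lat at 230 and S100a9 at 583 RPKM. The levels alone therefore do not identify the cells.

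Most mitotic genes were below 10 RPKM. The median of the 40 was 1.90 RPKM in pool 1 and at 4.32 in pool 2. The median of all 27179 genes was 0.183 and 0.193 RPKM, and that of the 17233 genes above 0 was 4.81 and 5.04. Of the 40, 26 reached 1 RPKM in both pools (65%), where 40.5% of all genes and 63.9% of the 17233 genes above 0 did. All 40 were above 0, so their share lay near the latter. Means ran from 0.183 for Cenpf to 61.4 for Bub3, 6 genes were at 10 RPKM or more, 27 between 1 and 10, and 7 below 1. Bub3 alone held 27.5% of the summed RPKM of the 40 in pool 1 and 23.4% in pool 2. Replication genes such as Pcna and Mcm2 were higher, with a median of 19.3 RPKM in pool 1 and at 25.6 in pool 2 over 20 genes. On the mean of the pools, Bub3 and Pttg1 were the only mitotic genes at or above the replication median of 22.5 RPKM, and in pool 2 alone Pttg1 lay below that pool's median. On the log2 scale the median of the replication genes exceeded that of the mitotic genes by 2.90 ± 0.53 (SD, n = 2), which is 9.70-fold in pool 1 and 5.78-fold in pool 2. The order of the 40 genes was nearly the same in both pools, with a Spearman rho of 0.97 over genes, which share libraries and are not independent replicates.

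**Figure D1:**
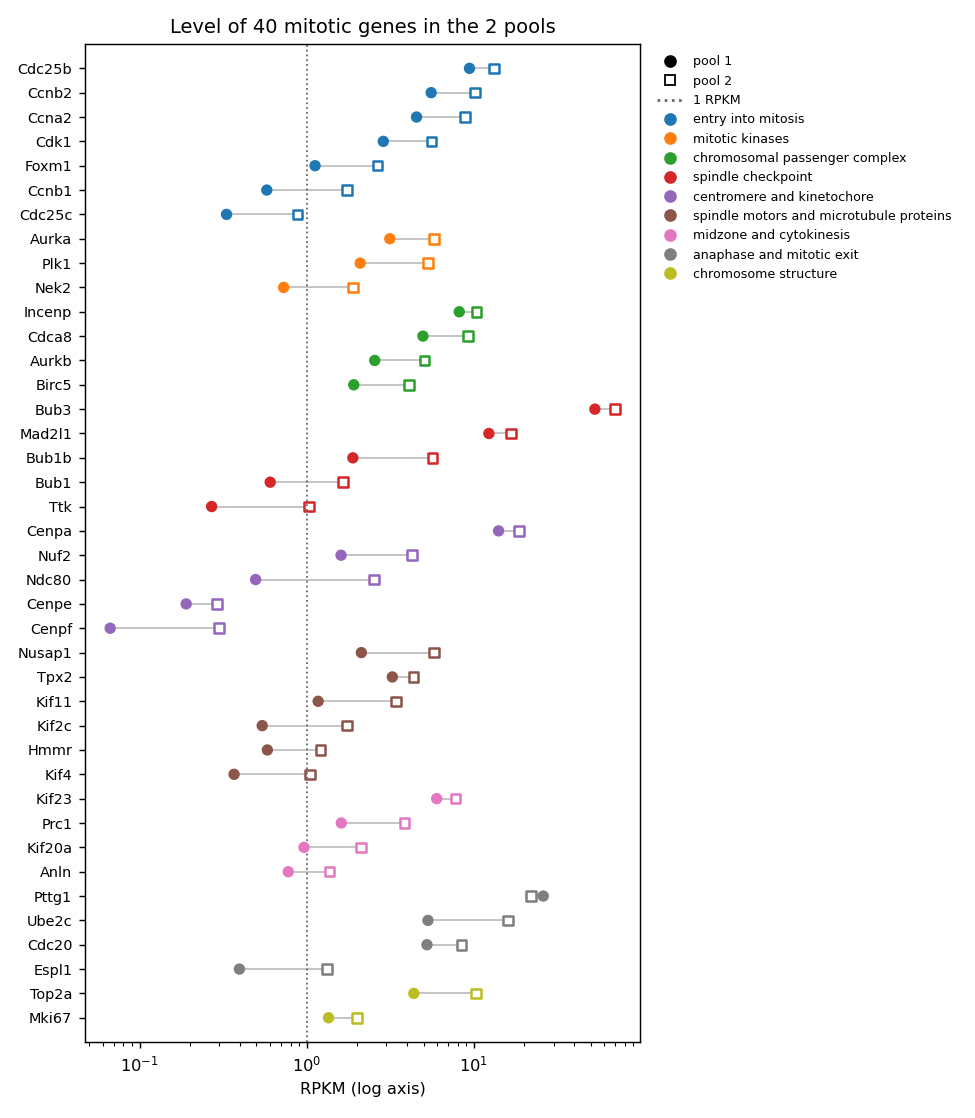
RPKM (log axis) of each of the 40 mitotic genes in pool 1 (filled circles) and pool 2 (open squares), coloured by role, with a dotted line at 1 RPKM. The square lies to the right of the circle for 39 genes, and for Pttg1 it lies to the left.

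Mitotic transcripts were more abundant in pool 2. The level was higher in pool 2 for 39 of 40 genes, where 57% of the 17233 genes above 0 in either pool were. On the scale of log2(RPKM + 0.1), which understates the ratio of low genes, 21 mitotic genes were at least 2-fold higher in pool 2 and 0 were 2-fold lower. The background shares were 5.27% and 3.63% of the same 17233 genes. The median log2 ratio of the 40 was 1.06, a 2.08-fold difference, against 0.04 over all genes above 0. The counting interval of the ratio lay above 1 for 38 mitotic genes, where 26.2% of all genes had one above 1. With 1 library a side, these ratios describe 2 libraries and have no replicate check. The list was chosen with earlier results of these data known, so its shares are a description and no independent test. With a pseudocount of 1 in place of 0.1, 8 of 40 were 2-fold higher.

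The size of the ratio varied with the level. Of the 7 mitotic genes under 1 RPKM, 5 were at least 2-fold higher in pool 2, where 10.3% of all genes below 1 RPKM were. Between 1 and 10 RPKM it was 15 of 27, against a background of 5.21%, and at 10 RPKM or more it was 1 of 6 (Ube2c), against 0.909%. Over the 40 genes the level and the log2 ratio had a Pearson r of -0.54 and a Spearman rho of -0.55, and over all detected genes the Spearman rho was -0.08. These are descriptions across genes that share the same libraries, and a low level in pool 1 enters both axes. The 5 members with fewer than 30 reads in pool 1 were Ndc80, Ttk, Cenpf, Ccnb1 and Cdc25c. Without them 16 of the other 35 were 2-fold higher and the median log2 ratio was 0.95. Of all genes above 0, with no filter on reads, 5.27% were 2-fold higher.

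**Figure D2:**
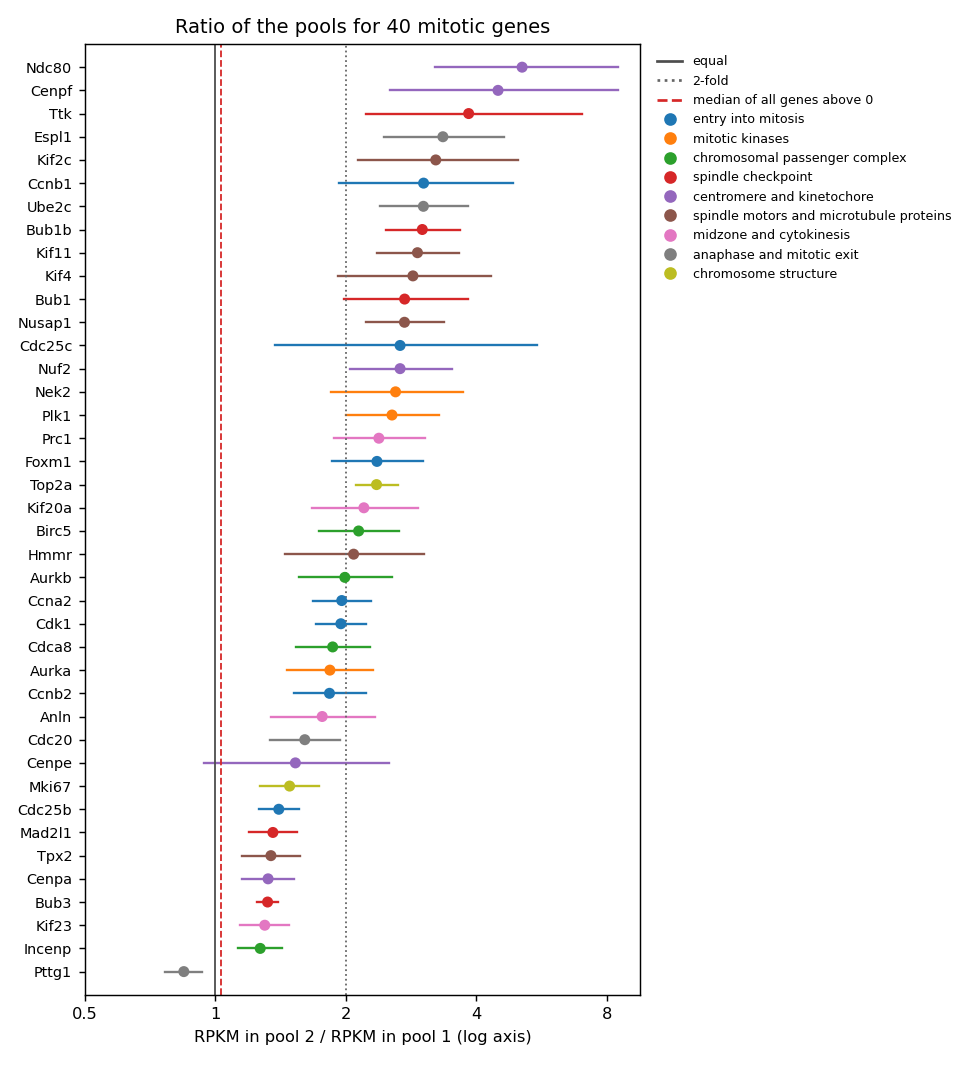
RPKM in pool 2 divided by RPKM in pool 1 (log axis) for each of the 40 mitotic genes, with the 95% exact counting interval, coloured by role. Ratios run from 0.845 for Pttg1 to 5.10 for Ndc80, 38 intervals lie above 1, and the dashed line marks the median of all genes above 0, at 1.03.

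Genes of mitotic entry were led by Cdc25b, a phosphatase that activates CDK1, at 9.42 RPKM in pool 1 and at 13.2 in pool 2. Its relative Cdc25c was far lower, at 0.331 and 0.883 RPKM. The B-type cyclins also differed in level: Ccnb2 was at 5.55 and 10.2 RPKM and Ccnb1 at 0.577 and 1.74, so that Ccnb2 was 9.63-fold higher than Ccnb1 in pool 1 and 5.84-fold in pool 2. Ccna2, the cyclin of S phase and mitotic entry, was at 4.54 and 8.88 RPKM. Its kinase partner Cdk1 (Entrez ID 12534) was at 2.87 and 5.59 RPKM. Foxm1, the transcription factor of the late cell cycle, was at 1.12 and 2.65 RPKM. All 7 genes were higher in pool 2, with log2 ratios from 0.48 for Cdc25b to 1.44 for Ccnb1, and 3 of 7 were at least 2-fold higher. Of all genes above 0, 57% were higher and 5.27% were 2-fold higher. The counting intervals of Ccna2 (1.68 to 2.28) and Cdk1 (1.70 to 2.23) include 2, so their place just under 2-fold is within counting error.

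The mitotic kinases Aurka, Plk1 and Nek2 were at similar or lower levels. Aurka, which matures centrosomes and spindle poles, was at 3.14 RPKM in pool 1 and at 5.77 in pool 2. Plk1, a kinase of centrosomes, kinetochores and cytokinesis, was at 2.09 and 5.33 RPKM, a ratio of 2.55 (counting interval 1.9996 to 3.28). Nek2, which separates centrosomes, was at 0.727 and 1.89 RPKM. The counting intervals of all 3 kinases overlap.

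The chromosomal passenger complex corrects faulty attachments and consists of the kinase Aurora B and the subunits INCENP, survivin and borealin. All 4 genes were detected, where 40.5% of all genes and 63.9% of those above 0 were. Incenp, the scaffold, was highest at 8.18 RPKM in pool 1 and at 10.4 in pool 2. Cdca8, which encodes borealin, was at 4.96 and 9.24 RPKM. Aurkb was at 2.55 and 5.08 RPKM and Birc5, which encodes survivin, at 1.91 and 4.09. The ratio of the pools was 1.27 for Incenp (counting interval 1.13 to 1.42). It was 1.86 for Cdca8 (1.53 to 2.27), 1.99 for Aurkb (1.56 to 2.55) and 2.14 for Birc5 (1.73 to 2.65). The interval of Incenp does not overlap those of the other 3 subunits, and Incenp was 3.20-fold higher than Aurkb in pool 1 and 2.04-fold in pool 2.

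Spindle checkpoint genes comprised an abundant pair and a low trio. Bub3, a WD-repeat protein of the checkpoint complex, was at 53.0 RPKM in pool 1 and at 69.9 in pool 2. Mad2l1, the checkpoint protein that holds CDC20 inactive, was at 12.3 and 16.7 RPKM. Their ratios of 1.32 (1.25 to 1.39) and 1.36 (1.19 to 1.54) were among the smallest of the 40. The kinase gene Bub1 was at 0.604 and 1.65 RPKM, and Bub1b, which encodes BUBR1, was at 1.89 and 5.66. Ttk, which encodes the kinase MPS1 at the top of the checkpoint, was at 0.270 and 1.04 RPKM. These 3 differed by 2.73 (1.98 to 3.82), 2.999 (2.47 to 3.66) and 3.84 (2.22 to 6.99) times, and none of the 3 intervals reaches those of Bub3 and Mad2l1. Bub3 exceeded its binding partner Bub1 by 87.6-fold in pool 1 and 42.3-fold in pool 2.

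Among centromere and kinetochore genes, Cenpa, the histone H3 variant that marks centromeres, was at 14.1 RPKM in pool 1 and at 18.6 in pool 2. The subunits of the microtubule-binding NDC80 complex were lower, with Nuf2 at 1.60 and 4.28 RPKM and Ndc80 at 0.494 and 2.52. Ndc80 had the largest ratio of the 40, 5.10, from an estimated 22 reads in pool 1 and 110 in pool 2 (counting interval 3.20 to 8.46), and the interval of Nuf2 was 2.04 to 3.51. The long outer kinetochore genes were lowest of all: the kinesin Cenpe was at 0.190 and 0.290 RPKM and Cenpf at 0.0667 and 0.299. The interval of Cenpe, 0.942 to 2.51 from 30 and 45 reads, was the 1 interval of the 40 to include 1, so a difference was not detectable at this depth. Cenpf had 15 and 66 reads, a ratio of 4.48 (2.53 to 8.46).

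The genes of spindle motors and microtubule proteins had the largest median log2 ratio of the 9 roles, 1.35 over 6 genes. Nusap1, which bundles spindle microtubules, was at 2.12 RPKM in pool 1 and at 5.79 in pool 2. Tpx2, the activator of Aurora A, was at 3.25 and 4.37 RPKM. The plus-end motor Kif11, which separates spindle poles, was at 1.17 and 3.42. Kif2c, a microtubule depolymerase, was at 0.541 and 1.74 RPKM, the chromokinesin Kif4 at 0.367 and 1.05, and Hmmr at 0.581 and 1.21. Tpx2 had the smallest ratio of the 6, 1.34 (1.15 to 1.57). Its interval lay below those of Kif2c (2.13 to 4.99), Kif11 (2.36 to 3.65), Kif4 (1.92 to 4.33) and Nusap1 (2.22 to 3.37), and overlapped that of Hmmr (1.45 to 3.03). The partners Aurka and Tpx2 were at nearly equal levels in pool 1, a ratio of 0.966, and at 1.32 in pool 2.

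Of the genes of the spindle midzone and cytokinesis, Kif23, a motor of the centralspindlin complex, was at 5.99 RPKM in pool 1 and at 7.78 in pool 2. Prc1, which bundles midzone microtubules, was at 1.61 and 3.83 RPKM. The motor Kif20a was at 0.963 and 2.12, and Anln, an actin-binding scaffold of the cleavage furrow, at 0.776 and 1.37 RPKM. The ratio of Kif23, 1.299 (1.14 to 1.48), lay below the intervals of Prc1 (1.87 to 3.05) and Kif20a (1.67 to 2.93), and overlapped that of Anln (1.34 to 2.33).

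Genes of anaphase and mitotic exit held both extremes of the abundant members. Pttg1, which encodes securin, the inhibitor of separase, was at 26.01 RPKM in pool 1 and at 22.0 in pool 2, the only member lower in pool 2. Its estimated 914 and 758 reads give a ratio of 0.845 (counting interval 0.767 to 0.932). Ube2c, the ubiquitin-conjugating enzyme of the anaphase-promoting complex, was at 5.31 and 16.0 RPKM, a ratio of 3.02 (2.40 to 3.82) and the largest among members at 10 RPKM or more. Cdc20, the activator of that complex in mitosis, was at 5.24 and 8.42 RPKM. Espl1, which encodes separase, was at 0.395 and 1.32 RPKM, so the securin transcript exceeded that of its target 65.8-fold in pool 1 and 16.6-fold in pool 2.

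The chromosome structure genes Mki67 and Top2a, the usual proliferation markers, were not equally apart. Top2a, the topoisomerase that untangles sister chromatids (chromosome 11, 98992947 to 99024199, mm10), was at 4.37 RPKM in pool 1 and at 10.3 in pool 2, a ratio of 2.35 (2.11 to 2.63). Mki67, which encodes Ki-67, the coat protein of mitotic chromosomes (chromosome 7, 135689784 to 135716450), was at 1.35 and 2.002 RPKM, a ratio of 1.48 (1.27 to 1.73). The 2 intervals do not overlap.

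**Figure D3:**
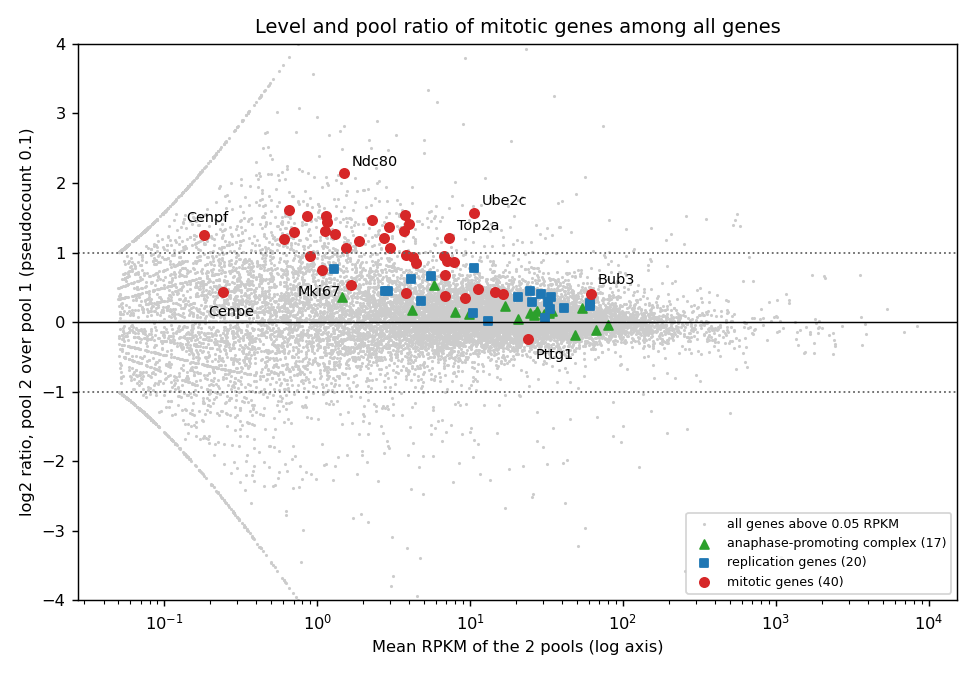
Mean RPKM of the pools (log axis) against the log2 ratio of pool 2 over pool 1 for all genes above 0.05 RPKM (grey; 61 lie beyond the plotted ratios), the 40 mitotic genes (red circles), 20 replication genes (blue squares) and 17 genes of the anaphase-promoting complex (green triangles). Red points are spread from -0.24 to 2.14, and no blue square or green triangle reaches the dotted line at 2-fold.

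Other genes of the same processes, from lists that hold none of the 40, were examined in the same way, with 2-fold called on the log2(RPKM + 0.1) scale. These lists too were chosen with earlier results of these data known. Over 6 such lists, 115 genes in all, 100 were higher in pool 2 and 15 lower, 18 were at least 2-fold higher (15.7%) and 0 were 2-fold lower, with a median log2 ratio of 0.32. Over all genes above 0, 57% were higher in pool 2, 5.27% were 2-fold higher and 3.63% were 2-fold lower. Of the other spindle and cytokinesis genes, 7 of 20 were 2-fold higher (35%, against the same 5.27%), with a median of 0.75. Kif18b, a motor that shortens astral microtubules, was at 0.534 RPKM in pool 1 and at 2.05 in pool 2, and Spag5, which encodes astrin, at 0.557 and 1.78. The most abundant of that list were Numa1, a spindle pole and nuclear matrix protein, at 40.8 and 32.1 RPKM, and Racgap1 and Ckap5 at 7.004 and 9.33 and at 6.43 and 7.73 RPKM. The lowest was Aspm at 0.135 and 0.317, which is 2.34-fold without the pseudocount but under 2-fold with it. Numa1 was the only one of the 20 lower in pool 2.

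Among 31 other kinetochore and centromere genes, 28 were higher in pool 2, 5 of them at least 2-fold (16.1%, against 5.27% of all genes), with a median log2 ratio of 0.38. The 5 were Cenpk, Ska1, Cenpp, Ska3 and Knl1, and 4 of these had means under 1 RPKM. Cenpb, which binds centromeric DNA repeats, led the list at 70.2 RPKM in pool 1 and at 62.6 in pool 2, followed by Pmf1 at 31.8 and 35.6 and Zwint at 23.0 and 23.1. Knl1, the scaffold that recruits BUB proteins, was lowest at 0.121 and 0.479 RPKM.

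Condensin and cohesin genes covered a wide range of levels. The cohesin subunits Rad21, Stag2 and Smc1a, which hold sister chromatids together and also shape chromatin in resting cells, were highest at 86.5 and 96.4, 55.1 and 56.7, and 42.2 and 37.3 RPKM. The condensin I subunit Ncaph was at 1.73 RPKM in pool 1 and at 5.50 in pool 2, and Cdca5, which encodes sororin, at 1.71 and 4.05. With the pseudocount, these were the 2 of 19 genes at least 2-fold higher (10.5%, against 5.27% of all genes). Without it, the ratios of Ncapg (2.04), Ncapg2 (2.04) and Sgo1 (2.01) were also just above 2-fold. Their counting intervals, 1.53 to 2.74, 1.70 to 2.46 and 1.34 to 3.07, include 2. The median log2 ratio of the list was 0.16. Sgo2a, a shugoshin that protects centromeric cohesion, was lowest at 0.301 and 0.410 RPKM.

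Other mitotic kinases and regulators had a median log2 ratio of 0.47, with Pbk, Cdca3 and Ccnf at least 2-fold higher among 15 genes (20%, against 5.27% of all genes). Ensa and Arpp19, the inhibitors of the phosphatase PP2A-B55, were highest at 57.2 and 55.9 and at 20.5 and 22.1 RPKM, ahead of Cks1b at 11.4 and 17.4. Mastl, the kinase that activates both inhibitors, was lowest at 0.298 and 0.423 RPKM. The kinase transcript was thus far below those of its targets in both pools.

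The anaphase-promoting complex, by contrast with its mitotic partners Cdc20 and Ube2c, was abundant and nearly level between the pools. All 17 genes were detected, where 40.5% of all genes and 63.9% of those above 0 were, and the median log2 ratio was 0.13. In either direction 0 were 2-fold apart, against 5.27% higher and 3.63% lower among genes above 0. The median level of the list was 26.2 RPKM, and of all genes at 10 RPKM or more 0.909% were 2-fold higher. The 0 of 17 thus lay near the background. Anapc5, Anapc13 and Anapc2 were at 81.7 and 79.1, 69.7 and 64.4, and 50.1 and 57.8 RPKM, and Ube2s was lowest at 1.25 and 1.63. Fzr1, which encodes CDH1, the activator that keeps the complex active in G1, was at 31.3 RPKM in pool 1 and at 34.4 in pool 2. Cdc20 stood at 0.167 of the level of Fzr1 in pool 1 and at 0.245 in pool 2.

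The regulators that act on mitotic promoters differed widely in level. Rbl2, which encodes the DREAM subunit p130, was at 96.3 RPKM in pool 1 and at 106 in pool 2. Rbbp4, a MuvB subunit, was at 81.2 and 93.1, and E2f4, the E2F factor of DREAM, at 71.3 and 60.5. Mybl2, which encodes B-Myb, the partner of MuvB in cycling cells, was lowest at 0.387 and 0.967 RPKM, from an estimated 29 and 71 reads. It was the 1 of 13 genes at least 2-fold higher in pool 2 (7.69%, near the 5.27% of all genes). Of all genes with a mean under 1 RPKM, where Mybl2 lies, 10.3% were 2-fold higher. Rbl2 exceeded Mybl2 248-fold in pool 1 and 109-fold in pool 2.

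Replication genes were higher in pool 2 in 20 of 20 cases (57% of all genes) and 2-fold higher in 0 (5.27% of all genes), with a median log2 ratio of 0.33. Mcm6, Pcna and Mcm3 were at 55.4 and 67.1, 55.7 and 65.6, and 38.4 and 44.4 RPKM, and Cdc6, which loads the MCM helicase, was lowest at 0.936 and 1.65. On the log2(RPKM + 0.1) scale the largest ratio of that list was 0.78, for Rrm2 (7.81 and 13.5 RPKM), below the mitotic median. Without the pseudocount Cdc6 was ahead, with a ratio of 1.76 against 1.73 for Rrm2, and their counting intervals overlap.

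**Figure D4:**
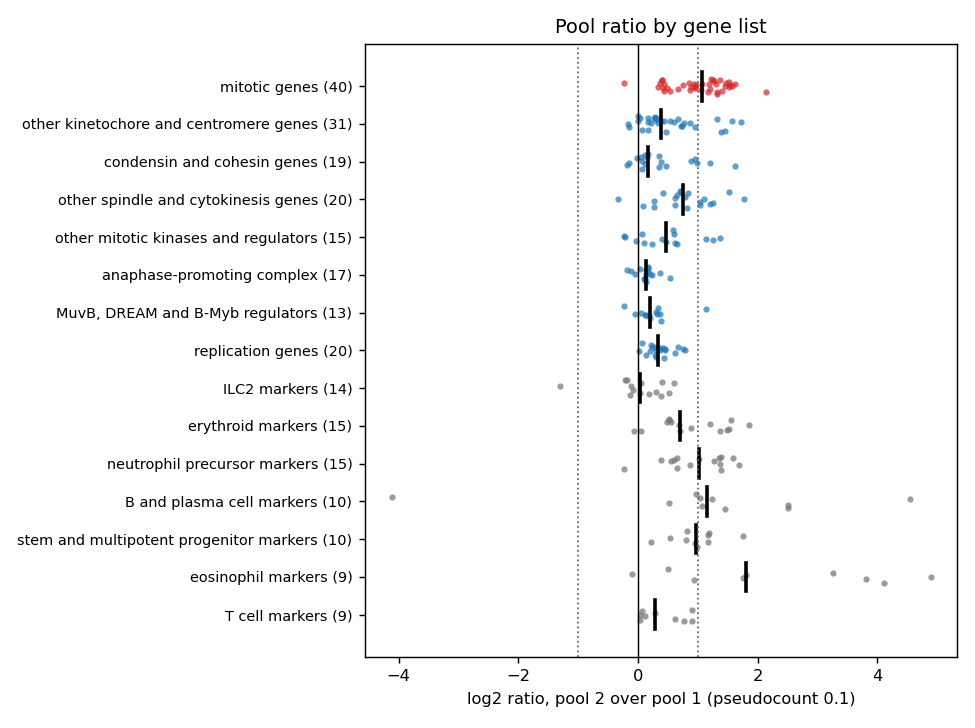
Log2 ratio of pool 2 over pool 1 for each gene above 0, by list, with the number of genes in brackets, a black bar at the median, and dotted lines at 2-fold. The median is 1.06 for the mitotic genes (red), between 0.13 and 0.75 for the 7 lists of related genes (blue), 0.03 for ILC2 markers and between 0.28 and 1.802 for markers of other cell types (grey).

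Most markers of other marrow cells were also higher in pool 2, where 57% of all genes were, and intervals above 1 are counted here against 26.2% of all genes. Neutrophil precursor markers were higher for 14 of 15 genes, 14 of them with an interval above 1. Their summed level was 1149.5 RPKM in pool 1 and at 2630.2 in pool 2. The most abundant of them, S100a9 at 324 and 842 RPKM and S100a8 at 288 and 755, weigh most in that sum. Single ratios in the list ran from 0.851 for Retnlg to 3.28 for Fcnb. They were 1.297 for Mpo, 1.57 for Elane, 1.56 for Prtn3 and 1.47 for Ctsg. The sum therefore does not describe each gene of the list. Erythroid markers were higher for 14 of 15 (13 intervals above 1), with sums of 724 and 1963 RPKM, and eosinophil markers for 8 of 9 (8 intervals), with sums of 60.3 and 659. B and plasma cell markers were higher for 9 of 10 (8 intervals), with sums of 50.02 and 64.3 RPKM. The exception was Jchain, the joining chain gene of plasma cells, at 13.2 RPKM in pool 1 and at 0.672 in pool 2, a ratio of 0.0507 (0.0334 to 0.0741). The largest ratio of that list was 41.4 for Pax5 (26.9 to 67.3), at 0.123 and 5.09 RPKM. Cd79b, at 33.5 and 47.8 RPKM, weighs most in those sums, so they do not describe each gene. Stem and multipotent progenitor markers were higher for 10 of 10 (8 intervals), with sums of 159 and 227 RPKM. T cell markers were higher for 9 of the 9 above 0, with sums of 686 and 877, but 6 of the 9 had an interval above 1 and those of Cd5, Cd6 and Trac include 1. Cd8a was listed at 0. No other marker was at 0 in both pools.

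Some genes of precursors were among these markers, and those named here were picked after their values were seen. Other genes of the marker lists had ratios of 2.55 (Camp), 2.93 (Hba-a2), 17.3 (Prg2), 32.4 (Epx) and 41.4 (Pax5). Mpo, the peroxidase of early neutrophil precursors, was at 71.7 RPKM in pool 1 and at 93.0 in pool 2, and Elane, an early granule protease, at 45.0 and 70.6. Fcnb, a gene of immature neutrophils, was at 4.15 and 13.6 RPKM. Klf1, a factor of erythroid precursors, was at 2.61 and 6.11 RPKM, while Gata1 was at 7.42 and 7.09. Kit, the stem cell factor receptor, was at 11.1 and 22.0, and Cd34, a marker of early progenitors, at 1.26 and 4.48 RPKM. ILC2 markers went both ways, with 7 of 14 intervals above 1 and 6 below 1, a median log2 ratio of 0.03 and sums of 4293 and 4417 RPKM. Id2, a factor of innate lymphoid cells, was lower in pool 2, at 710 and 287 RPKM, and Il1rl1, the receptor of interleukin 33, was higher, at 173 and 262 RPKM. The part of these other cells in the mitotic difference was not tested.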

How the data were processed

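The authors deposited RPKM for 27179 Entrez gene IDs in each of the 2 libraries, and these values were used as deposited. Per the submitters' processing notes, the tools were featureCounts (no version), CASAVA 1.8.2 and edgeR 3.8.2 and 3.22.0, on mm10, with no role or order. Aligner, strand setting and the treatment of reads that fit several places were not given in the sources used here, so genes with near-identical copies or antisense partners may share reads. Symbols came from the files, and 9 listed genes under older symbols were matched by Entrez ID.

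Library totals were found from the steps between RPKM values, and for 17233 of 17233 genes above 0 a whole length gave whole reads in both pools. Where several lengths did, the one nearest the GENCODE vM21 exon length was taken, which lay within 10% of it for 35 of 40 members. These reads are estimates, and over all genes they summed to 9.74% and 9.11% more than the totals of pool 1 and pool 2. Of 1000 genes, 82.4% had whole reads at a length within 10% of the annotated one, and 0% with totals wrong by 1 part in 1000. The recovery was tested on simulated data with lengths within 10% of the annotated ones. The intervals were tested there on the simulated reads, so intervals on recovered reads were not tested. Ratios of pools used log2(RPKM + 0.1), a call of 2-fold, and an exact binomial interval of 95% on the reads (Python 3.11.15, scipy 1.17.1). Single ratios in the text are RPKM in pool 2 over pool 1 with no pseudocount. No p-value was computed, since 1 group of 2 libraries holds no contrast, and spread between the pools may be technical. The members and lists were chosen with earlier results of these data known. The text names all 40 members and, of each related list, the 3 highest and the lowest by mean RPKM. Other genes were named after their values were seen. Alternatives were other pseudocounts, filters, scales, folds and single pools.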

Additional observations from a re-analysis of the deposited data

How the results depend on the processing

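Of 32 alternatives over 5 results, 0 reversed a direction. In 4 of them the level or the replication difference was taken in a single pool, which with 2 pools lies within 1 SD of their mean by construction and so tests nothing. Of the other 28, 23 left the value within 1.5 times (counts) or within the spread of the pools or of counting (levels and ratios). That tally is generous. It holds detection in pool 1 alone (26 genes) and in pool 2 alone (37), which cannot fall below the count in both pools. It also holds recovered reads per total and RPKM without a pseudocount, which are the same ratio (22 genes, median 1.117 in each) and not separate checks. The number of mitotic genes detected in both pools, 26 at 1 RPKM, was 10 at 5 RPKM and 40 at 10 recovered reads. The number 2-fold higher in pool 2, 21 as reported, was 8 with a pseudocount of 1, and 38 genes had a counting interval above 1, or 37 with the fewest reads that fit each gene. After rescaling to equal sums or by the median ratio, 39 of 40 were still higher in pool 2. The fewest reads, the filter of 30 reads and the ratio without a pseudocount were chosen after seeing the data. Taken in single pools, the median log2 level of the mitotic genes was 0.9996 and 2.14, and the replication genes exceeded them by 3.28 and 2.53 on that scale. No paired analysis was possible because the libraries form 1 group. At these depths, ratios of genes under 30 reads in pool 1 carry wide counting intervals.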
